A study of Mus musculus with 9 samples.

Results

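Collagens are the trimeric proteins that give the liver its scaffold, and each is assembled from chains that separate genes encode. The chains described here are all 38 rows of the deposited table, of 28517 genes, whose symbol is Col, a number, the letter a and a number. By class they were 10 fibrillar chains, 6 type IV chains of basement membrane and 22 chains of other classes. Of these 38 chains, 31 had enough counts to be tested (8 fibrillar, 6 type IV and 17 other). Another 6 chain symbols in the class list, Col2a1, Col6a4, Col9a1, Col19a1, Col22a1 and Col26a1, were not analysed here.

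The libraries came from livers of db/db mice, which carry a defective leptin receptor and become obese and diabetic. The groups were FGF19WT, FGF19ΔKLB and vehicle (PBS), each given for 12 weeks and each with 3 libraries, so every animal, vehicle included, carried the db/db background. FGF19 is a gut hormone that signals in hepatocytes through FGFR4 with the co-receptor β-klotho. The labels give neither the age and sex of the mice nor what the ΔKLB change is, and the columns of that group carry the code F19_HBS, which the labels do not explain. They also do not say whether the libraries of a group came from separate animals, so p-values measure the spread between these libraries, which may be technical.

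Fibrillar collagens (types I, III, V, XI, XXIV and XXVII) form the banded fibrils that accumulate in liver scars, and stellate cells and portal fibroblasts are their main source. Type IV chains form the sheet-like network of basement membranes, which in the liver lies under bile ducts and vessels and, sparsely, along the sinusoids. The remaining classes coat fibrils, form beaded filaments, carry sugar chains at basement membranes or span the cell membrane. Assembly needs enzymes that hydroxylate and fold the chains, proteases that trim their ends and lysyl oxidases that cross-link them.

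Library totals were 65.1 to 73.3 M expected counts. They were taken to stand for about 16.3 to 18.3 M read pairs, at about 4 counts per read pair. That factor is inferred: counts of 4 and 8 were on average 4.31 times as frequent as their neighbours. Libraries FGF19WT 2 and 3 stood apart from FGF19WT 1. They were both above, or both below, the other 7 libraries in 37.4% of the 18142 genes tested. The summed level of 6 macrophage markers was 174 CPM in FGF19WT 1, 31.2 CPM in FGF19WT 2 and 11.2 CPM in FGF19WT 3, against 155 to 185 CPM in FGF19ΔKLB and 161 to 244 CPM in vehicle. CPM here is a gene's count divided by the library total in M, after TMM scaling of that total. The liver label was borne out by 8 hepatocyte markers, which summed to 97200 to 293000 CPM over the 9 libraries. That sum was 203000, 97200 and 107000 CPM in FGF19WT and 206000 to 293000 CPM in FGF19ΔKLB, against 104000 to 162000 CPM in vehicle. By fold change 4 of the 8 were higher in FGF19ΔKLB than in vehicle and 4 lower. The bearing of these sums on the CPM of collagen chains was not tested.

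No collagen chain was called in any of the comparisons at an adjusted p under 0.05 in the edgeR quasi-likelihood fit over 9 libraries (Benjamini-Hochberg adjustment over all genes). For FGF19WT against vehicle 0 of 31 chains were called, beside 0.110% of all genes. FGF19ΔKLB differed from vehicle in 0 chains, beside 0.0110% of all genes, and from FGF19WT in 0 chains, beside 0% of all genes. Fits to the 6 libraries of the groups compared also called 0 chains, of 30, 30 and 27 tested in that order of comparisons, where 0.00574%, 1.68% and 0.00584% of genes were called.

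At an unadjusted p under 0.05, 3 chains were higher (Col12a1, Col20a1 and Col23a1) and 3 lower (Col5a3, Col27a1 and Col25a1) in FGF19WT than in vehicle. That is 6 of 31 chains, where 18.8% of all genes reached this level. In FGF19ΔKLB against vehicle 2 were higher (Col4a5 and Col20a1) and 1 was lower (Col5a3), where 8.35% of all genes reached it. In FGF19ΔKLB against FGF19WT 2 were higher (Col27a1 and Col25a1) and 2 lower (Col12a1 and Col23a1), where 12.5% of all genes did.

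DESeq2, which ran over the same 9 libraries, called 5 chains in FGF19WT against vehicle, where it called 9.61% of all genes. They were Col5a3 and Col27a1, lower in FGF19WT, and Col12a1, Col20a1 and Col23a1, higher. It called 1 chain in FGF19ΔKLB against vehicle (Col5a3, lower; 2.04% of all genes) and 2 in FGF19ΔKLB against FGF19WT (Col12a1 and Col23a1, lower; 4.60% of all genes). Over the 6 libraries of the groups compared, a setting added after the data were seen, DESeq2 called the same 5 and 2 chains in the comparisons that involve FGF19WT, where it called 6.32% of all genes against vehicle and 3.11% in FGF19ΔKLB against FGF19WT. DESeq2 over 9 libraries gave no adjusted p for Col13a1 and Col14a1. The results below turn on these few chains and on the chains that make up most of the fibrils and basement membranes.

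**Figure D1:**
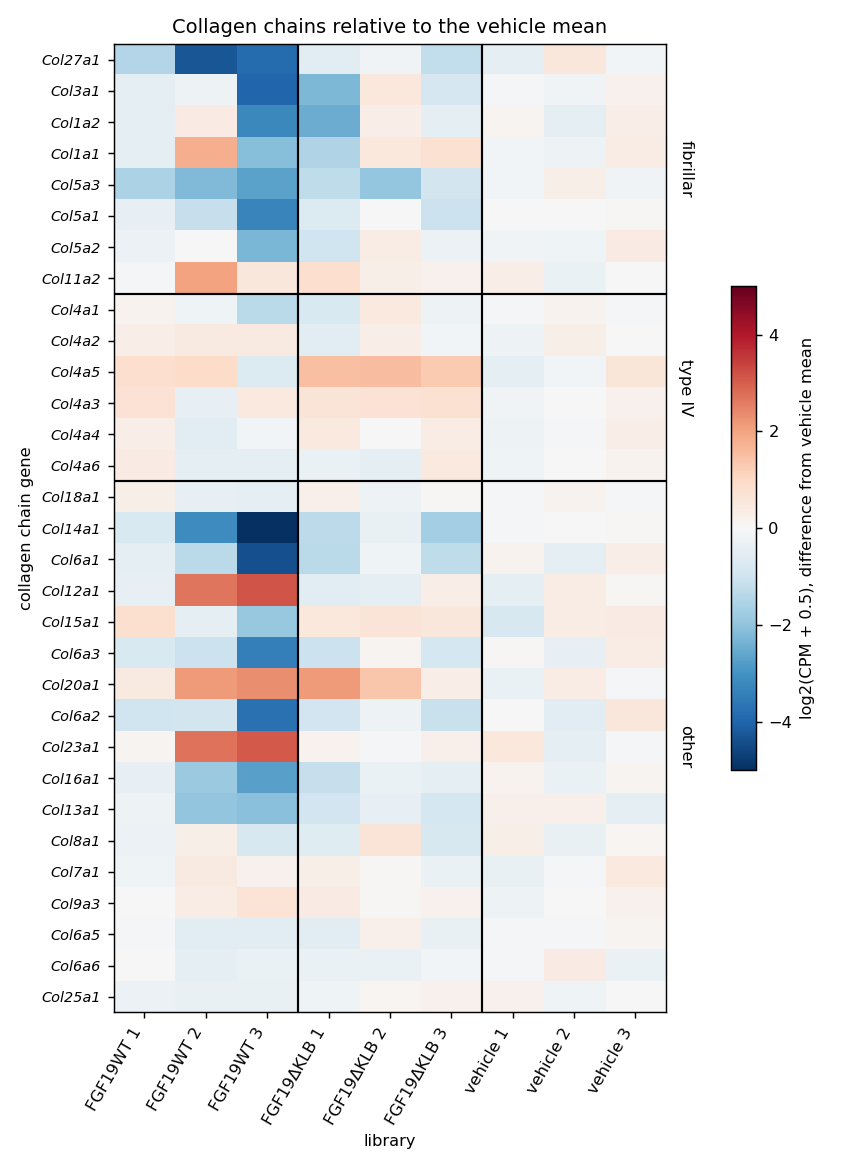
Level of the 31 tested collagen chains in each library as log2(CPM + 0.5) minus the mean of the vehicle libraries, with classes divided by horizontal lines and groups by vertical lines. FGF19WT 3 was the lowest of the 9 libraries for 16 of 31 chains, while Col12a1 and Col23a1 stood high in FGF19WT 2 and 3 only.

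The promoters of 4 chains are shown because the results turn on these genes. Col4a1 and Col4a2 are transcribed away from each other from starts that lie side by side, and their FPKM ratio was lowest in FGF19WT 2 and 3. Col5a3 is the chain with the smallest p in both comparisons with vehicle, and Col23a1 is the chain with the largest fold higher in FGF19WT among those called by DESeq2. Each window is the RefSeq sequence on GRCm38.p6 from 250 bases before to 50 bases after the gene's start, 5′ to 3′ on the gene's strand.
Col5a3 (chr9:20815018-20815317, minus strand): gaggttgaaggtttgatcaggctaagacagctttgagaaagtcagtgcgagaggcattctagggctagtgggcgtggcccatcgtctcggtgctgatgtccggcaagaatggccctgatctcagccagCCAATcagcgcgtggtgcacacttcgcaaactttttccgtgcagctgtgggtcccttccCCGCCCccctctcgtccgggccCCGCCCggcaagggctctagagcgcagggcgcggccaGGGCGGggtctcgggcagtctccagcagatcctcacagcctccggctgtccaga
Col4a1 (chr8:11312777-11313076, minus strand): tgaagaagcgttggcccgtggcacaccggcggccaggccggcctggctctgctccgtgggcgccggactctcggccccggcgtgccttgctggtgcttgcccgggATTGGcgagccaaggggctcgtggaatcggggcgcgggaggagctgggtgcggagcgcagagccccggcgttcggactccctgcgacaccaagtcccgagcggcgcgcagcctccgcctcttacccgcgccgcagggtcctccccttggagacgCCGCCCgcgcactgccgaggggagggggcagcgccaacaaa
Col4a2 (chr8:11312555-11312854, plus strand): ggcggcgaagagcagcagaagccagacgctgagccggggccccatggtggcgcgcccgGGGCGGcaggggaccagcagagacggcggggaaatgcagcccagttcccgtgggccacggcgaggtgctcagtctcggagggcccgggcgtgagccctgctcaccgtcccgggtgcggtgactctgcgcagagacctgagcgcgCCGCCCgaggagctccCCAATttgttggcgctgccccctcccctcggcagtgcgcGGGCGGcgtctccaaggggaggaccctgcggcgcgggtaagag
Col23a1 (chr11:51289670-51289969, plus strand): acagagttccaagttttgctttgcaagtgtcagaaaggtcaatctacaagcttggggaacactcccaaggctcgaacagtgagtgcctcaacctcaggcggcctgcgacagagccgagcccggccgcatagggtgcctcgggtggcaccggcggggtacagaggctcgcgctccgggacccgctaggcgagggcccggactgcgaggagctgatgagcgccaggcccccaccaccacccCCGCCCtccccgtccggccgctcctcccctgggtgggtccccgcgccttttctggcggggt
Capitals mark every match, on either strand, to the CCAAT box (searched by those letters), the GC box with the letters GGGCGG, and the TATA box with the letters TATAAA, and no match overlaps another in these windows.

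The windows of Col4a1 and Col4a2 share 78 bases, read on opposite strands, and the annotated genes share 22 bases at their starts. The CCAAT letters were found in 37.4% of all 32851 windows in the RefSeq table and in 11 of the 34 windows of collagen genes, which cover 32 of the 38 chains. GGGCGG was found in 35.7% of all windows and in 22 of the 34 collagen windows, and TATAAA in 13.6% and in 5 of 34. Among the 4 windows printed, the CCAAT letters occur in Col5a3, Col4a1 and Col4a2, the GC box occurs in all 4, and TATAAA in none. These matches describe letters in a window and say nothing of binding.

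Per transcript length, as FPKM computed by the authors, a single chain dominated in every library. Col18a1, a collagen of basement membranes that carries heparan sulphate and releases endostatin, had 64.3 to 103 FPKM, which was 72.5% to 87.3% of the summed FPKM of all chains. Next by mean FPKM over the 9 libraries came Col14a1 (3.76), Col4a1 (2.34), Col4a2 (2.13), Col3a1 (1.75), Col6a1 (1.68), Col27a1 (1.43), Col1a1 (1.16) and Col5a3 (1.05). The ranges of neighbours in this order overlapped from Col14a1 downward, and no library of any other chain reached the Col18a1 range. The type I chain Col1a2 had a mean of 0.704 FPKM.

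**Figure D2:**
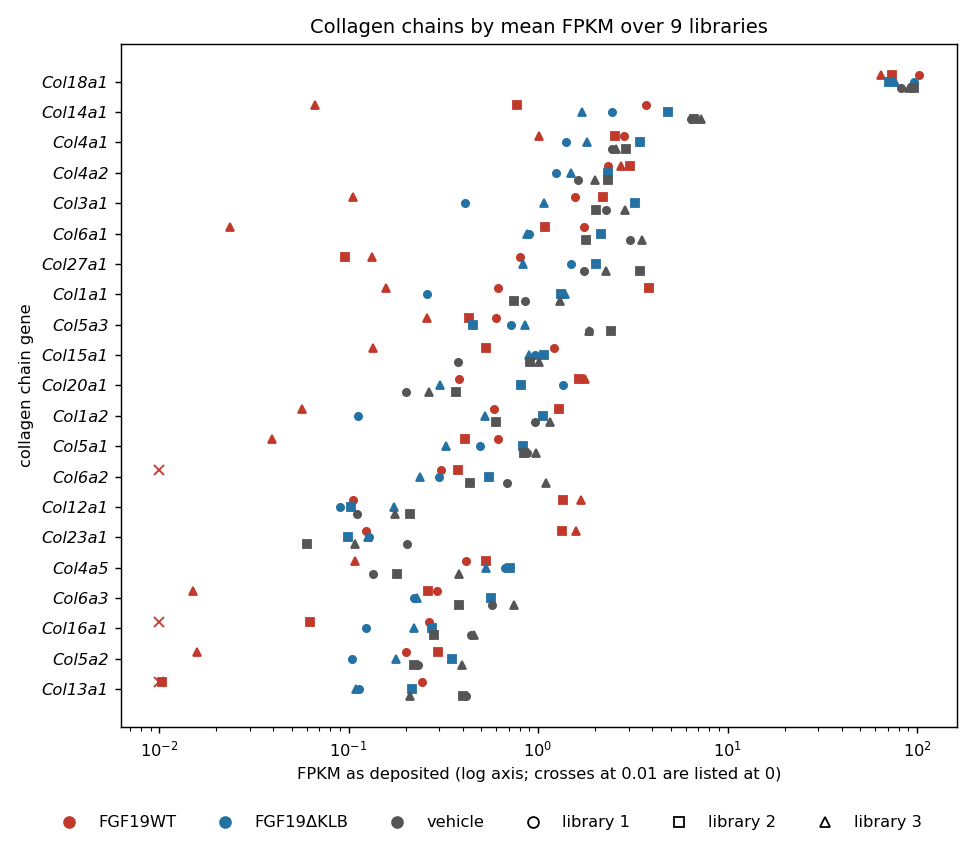
Deposited FPKM (log axis) of the 21 tested chains with a mean of at least 0.1 FPKM, each point a library, coloured by group and shaped by library number, with crosses at 0.01 for values listed at 0. Col18a1 lies at 64.3 to 103 FPKM, and the highest value of any other chain is the 7.28 FPKM of Col14a1.

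Among fibrillar chains the lower values in FGF19WT were clearest for Col5a3, the third chain of type V collagen, which sits inside fibrils and limits their width. Col5a3 (chr9:20770050-20815067 on GRCm38, minus strand) had 4.57, 2.8 and 1.87 CPM in FGF19WT libraries 1 to 3 and 5.71, 3.5 and 7.45 CPM in FGF19ΔKLB, against 13.4, 18.1 and 12.8 CPM in vehicle. Every library of both FGF19 groups lay below every vehicle library. The log2 fold change was -2.26 (SE 0.39, 4.78-fold lower) for FGF19WT against vehicle, with an edgeR adjusted p of 0.0924 over 9 libraries and 0.245 over 6.

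For FGF19ΔKLB against vehicle the log2 fold change of Col5a3 was -1.41 (SE 0.38, 2.65-fold lower), with an edgeR adjusted p of 0.352 over 9 libraries and 0.0625 over 6. DESeq2 over 9 libraries gave adjusted p-values of 5.92e-06 in FGF19WT and 0.0284 in FGF19ΔKLB, each set against vehicle. limma on log2(FPKM + 1) gave 0.0219 for FGF19WT against vehicle, a fit that called 0.595% of all genes and, among the chains, Col5a3 only, as did limma on log2(FPKM + 0.1), which called 0.474% of all genes. The 2 FGF19 groups themselves were closer, with a log2 difference of 0.85 (SE 0.38, edgeR adjusted p = 0.407, FGF19ΔKLB minus FGF19WT). Col5a3 is the only chain that DESeq2 over 9 libraries called against vehicle in both FGF19 groups, and these comparisons share the vehicle libraries.

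Col27a1, a fibrillar chain best known from cartilage, followed in FGF19WT. Its levels were 11.7, 1.21 and 1.83 CPM in FGF19WT and 22.6, 29.4 and 13.9 CPM in FGF19ΔKLB, against 24.1, 49.5 and 30.1 CPM in vehicle. FGF19WT did not overlap either of the other groups, and FGF19WT 2 and 3 were far below FGF19WT 1. FGF19WT was 7.03-fold lower than vehicle (log2 -2.81, SE 0.82, edgeR adjusted p = 0.142), and FGF19ΔKLB was 4.47-fold higher than FGF19WT (log2 2.16, SE 0.80, edgeR adjusted p = 0.334). Without FGF19WT 2 and 3, which leaves 1 library in that group, assumed to vary like the other groups, the difference from vehicle was -1.56 on the log2 scale (SE 0.56, edgeR adjusted p = 0.596), and that of Col5a3 was -1.69 (SE 0.45, edgeR adjusted p = 0.357). Mir455 lies within Col27a1 on the same strand.

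The chains of type I and type III collagen, the bulk of scar fibrils, spread widely within the FGF19 groups. Col1a1 had 4.56, 24.1 and 1.09 CPM in FGF19WT and 1.99, 9.76 and 11.6 CPM in FGF19ΔKLB, against 5.94, 5.43 and 8.64 CPM in vehicle. Its partner Col1a2 had 8.19, 15.3 and 0.769 CPM in FGF19WT and 1.64, 14.8 and 8.39 CPM in FGF19ΔKLB, against 12.7, 8.21 and 14.5 CPM in vehicle. Col3a1, which forms the reticular fibres, had 17.3, 20.5 and 1.09 CPM in FGF19WT and 4.72, 35.8 and 13.6 CPM in FGF19ΔKLB, against 23.8, 21.8 and 28.5 CPM in vehicle. FGF19WT 3 was the lowest and FGF19ΔKLB 1 the next lowest library for all 3 genes.

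These spreads leave wide 95% intervals. For FGF19WT against vehicle the edgeR log2 fold change was 0.57 (-1.65 to 2.80) for Col1a1, -0.54 (-2.72 to 1.64) for Col1a2 and -0.93 (-3.07 to 1.21) for Col3a1. For FGF19ΔKLB against vehicle it was 0.22 (-2.0 to 2.45), -0.51 (-2.69 to 1.67) and -0.46 (-2.58 to 1.67) for the same genes in that order. A difference of several fold in either direction was therefore not detectable for type I chains in these groups.

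Of the other fibrillar chains, Col5a1, the main chain of type V collagen, had 5.85, 3.34 and 0.363 CPM in FGF19WT and 4.87, 7.91 and 3.54 CPM in FGF19ΔKLB, against 7.88, 7.88 and 8.33 CPM in vehicle. FGF19WT lay below vehicle in every library, with a log2 fold change of -1.33 (SE 0.75, edgeR adjusted p = 0.363). Col5a2, the other common type V chain, had 2.17, 2.73 and 0.174 CPM in FGF19WT and 1.16, 3.8 and 2.2 CPM in FGF19ΔKLB, against 2.39, 2.34 and 3.88 CPM in vehicle, so the groups overlapped. Col11a2, a chain of type XI collagen, had 0.22, 2.6 and 0.624 CPM in FGF19WT and 0.88, 0.449 and 0.393 CPM in FGF19ΔKLB, against 0.467, 0.102 and 0.269 CPM in vehicle. Its high value stood in FGF19WT 2 alone. Col11a1 and Col24a1 did not pass the filter and stayed at or under 0.254 CPM in every library.

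Over the 8 tested fibrillar chains, the median log2 fold change was -0.85 in FGF19WT against vehicle, -0.48 in FGF19ΔKLB against vehicle and 0.48 for FGF19ΔKLB against FGF19WT, where the medians of all genes were 0.00, 0.00 and 0.01. In each comparison with vehicle 6 of the 8 were lower and 2 higher. All 3 medians depended on single libraries. The first was -0.31 without FGF19WT 3 and -1.39 without FGF19WT 2, the second was -0.01 without FGF19ΔKLB 1 and -0.93 without FGF19ΔKLB 2, and the third was -0.26 without FGF19ΔKLB 2 and -0.05 without FGF19WT 3. Summed FPKM of the fibrillar chains was 5.01, 8.96 and 0.851 in FGF19WT and 3.72, 9.34 and 5.23 in FGF19ΔKLB, against 8.87, 10.3 and 10.9 in vehicle. The sum in FGF19WT 3 was far below that of every other library.

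**Figure D3:**
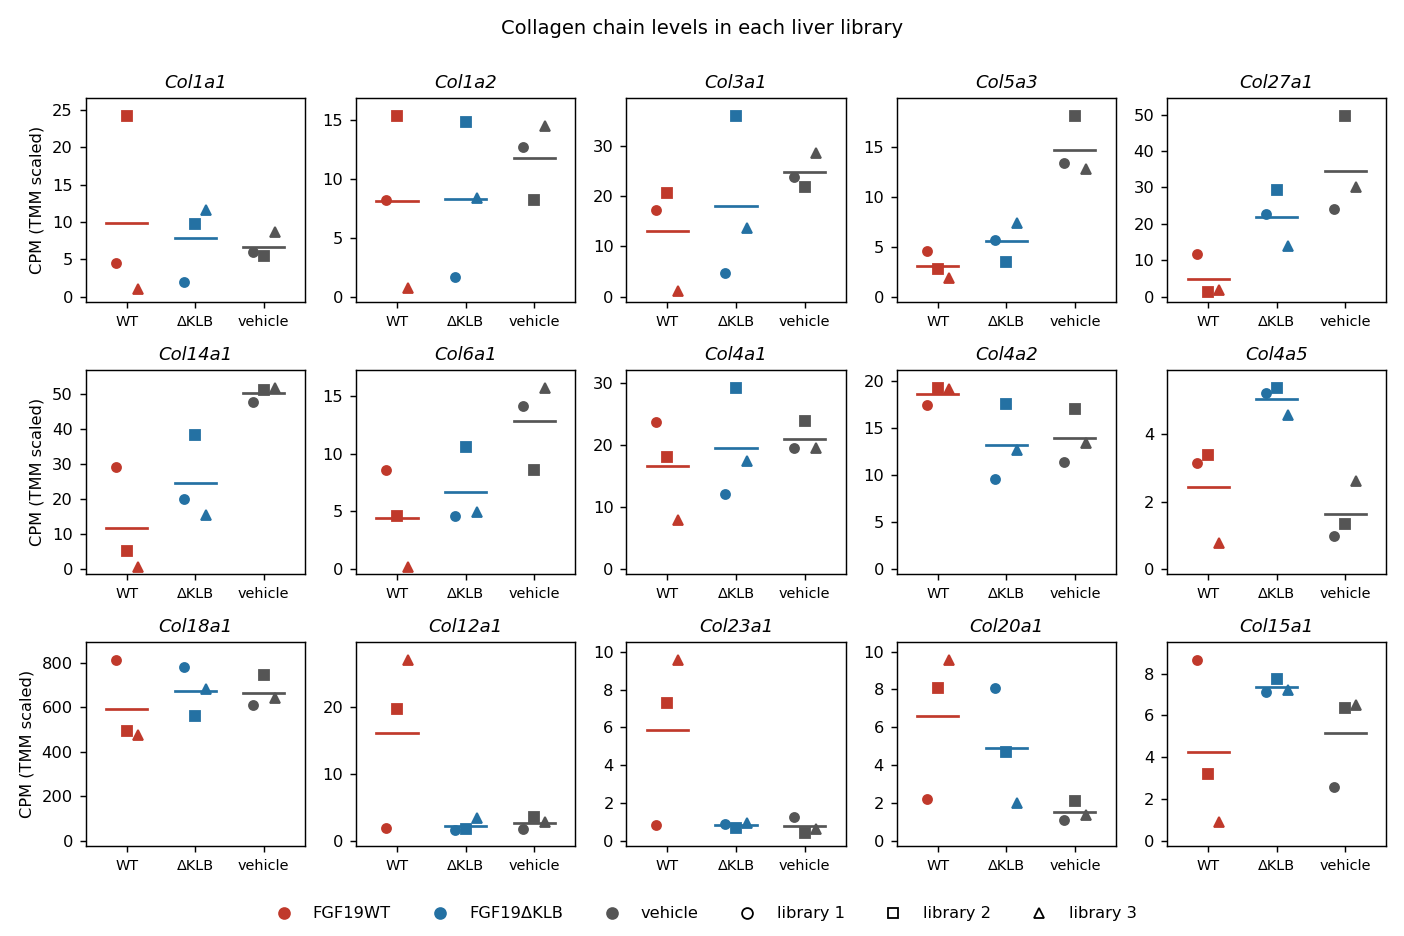
CPM of 15 chains in each library (linear axes, points shaped by library number, lines at group means), with FGF19WT left, FGF19ΔKLB in the middle and vehicle right. Col5a3 lay at 1.87 to 7.45 CPM in the FGF19 groups and at 12.8 to 18.1 CPM in vehicle, and Col12a1 and Col23a1 were high in FGF19WT 2 and 3 but not in FGF19WT 1.

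Among type IV chains edgeR called no difference in any comparison, as above. Col4a1 (chr8:11198423-11312826, minus strand) and Col4a2 (chr8:11312805-11449287, plus strand) encode the chains found in nearly all basement membranes and assemble together. Col4a1 had 23.7, 18.1 and 7.91 CPM in FGF19WT and 12.1, 29.1 and 17.4 CPM in FGF19ΔKLB, against 19.5, 23.8 and 19.5 CPM in vehicle. Col4a2 had 17.4, 19.2 and 19.1 CPM in FGF19WT and 9.5, 17.5 and 12.6 CPM in FGF19ΔKLB, against 11.4, 17 and 13.4 CPM in vehicle. Col4a2 was thus narrowly higher in every FGF19WT library than in vehicle (log2 0.42, SE 0.24, edgeR adjusted p = 0.364), while Col4a1 overlapped in all groups (log2 -0.34, SE 0.42, edgeR adjusted p = 0.675).

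The ratio of Col4a1 to Col4a2 within a library, from FPKM, was 1.21, 0.838 and 0.368 in FGF19WT and 1.13, 1.48 and 1.23 in FGF19ΔKLB, against 1.52, 1.24 and 1.3 in vehicle. It was lowest in FGF19WT 3 and next lowest in FGF19WT 2. Col1a1 and Col1a2, the chains of type I collagen, had FPKM ratios of 1.05, 2.98 and 2.75 in FGF19WT and 2.31, 1.25 and 2.63 in FGF19ΔKLB, against 0.884, 1.26 and 1.13 in vehicle. Vehicle libraries stayed within 0.884 to 1.26, and 4 of the 6 libraries of the FGF19 groups were above that range, at 2.31 or more. Ratios of Col6a1 to Col6a3, which join in type VI collagen, were 6.02, 4.16 and 1.58 in FGF19WT and 4.08, 3.82 and 3.83 in FGF19ΔKLB, against 5.3, 4.66 and 4.77 in vehicle. In FGF19WT 3 the Col6a1 to Col6a3 ratio rests on only 8 and 14 counts, so counting error there is large. The Col1a1 to Col1a2 ratio in that library rests on 75 and 53 counts. These ratios are given with no test.

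**Figure D4:**
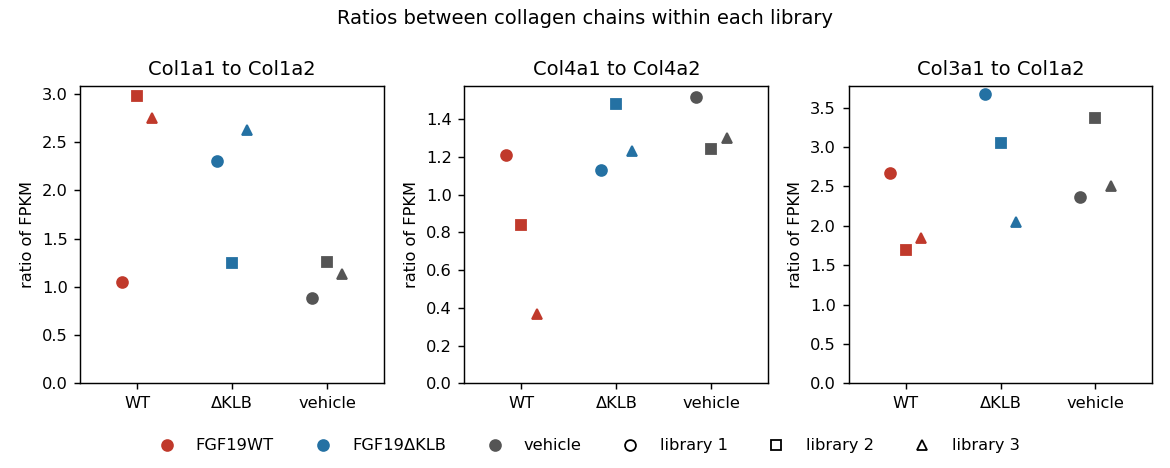
Ratio of deposited FPKM between pairs of chains within each library, for Col1a1 to Col1a2, Col4a1 to Col4a2 and Col3a1 to Col1a2, with each point a library. The Col4a1 to Col4a2 ratio was 0.838 and 0.368 in FGF19WT 2 and 3, against 1.24 to 1.52 in vehicle.

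Col4a5, an X-linked chain of the kidney filter and of other basement membranes, was the type IV chain that set FGF19ΔKLB apart. It had 5.22, 5.37 and 4.57 CPM in FGF19ΔKLB, 3.14, 3.38 and 0.769 CPM in FGF19WT, and 0.975, 1.33 and 2.61 CPM in vehicle. FGF19ΔKLB was above all libraries of both other groups. Against vehicle it was 3.08-fold higher (log2 1.62, SE 0.57), with an edgeR adjusted p of 0.489 over 9 libraries and 0.0802 over 6. DESeq2 gave an adjusted p of 0.14 over 9 libraries and 0.000992 over the 6, the setting added after the data were seen. Against FGF19WT the log2 difference was 1.06 (SE 0.56, edgeR adjusted p = 0.470). Its gene (chrX:141475385-141689234, plus strand) overlaps Gm15268 on the same strand.

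Col4a3 and Col4a4, which assemble with Col4a5, were near 1 CPM or below. Col4a3 had 1.03, 1.11 and 1.18 CPM in FGF19ΔKLB, 1.11, 0.234 and 0.856 CPM in FGF19WT, and 0.36, 0.469 and 0.627 CPM in vehicle. FGF19ΔKLB did not overlap vehicle (log2 1.18, SE 0.56, edgeR adjusted p = 0.637 over 9 libraries and 0.155 over 6). DESeq2 gave an adjusted p of 0.439 over 9 libraries and 0.0483 over those 6. Col4a4 had 0.748, 0.404 and 0.655 CPM in FGF19ΔKLB, 0.615, 0.0987 and 0.305 CPM in FGF19WT, and 0.24, 0.351 and 0.601 CPM in vehicle, with overlap throughout. Col4a6, the X-linked partner of Col4a5 in smooth muscle, stayed between 0 and 0.475 CPM.

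For FGF19ΔKLB against vehicle, DESeq2 over the 6 libraries called 5 chains where it called 7.95% of all genes. Col4a3, Col4a5 and Col20a1 were higher in FGF19ΔKLB, and Col5a3 and Col14a1 were lower. The median log2 fold change over the 6 type IV chains was 0.09 in FGF19WT against vehicle, 0.26 in FGF19ΔKLB against vehicle and 0.46 for FGF19ΔKLB against FGF19WT. Each of these turned sign under at least 1 of the 20 settings. Summed FPKM of type IV chains was 5.79, 6.15 and 3.96 in FGF19WT and 3.45, 6.65 and 4.03 in FGF19ΔKLB, against 4.28, 5.51 and 5.12 in vehicle.

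Col12a1 and Col23a1, chains of the remaining classes, were high in FGF19WT 2 and 3. Col12a1, a collagen that lies along type I fibrils in tissue under tension, had 1.82, 19.6 and 26.9 CPM in FGF19WT and 1.6, 1.78 and 3.37 CPM in FGF19ΔKLB, against 1.8, 3.54 and 2.73 CPM in vehicle. Col23a1, a transmembrane collagen, had 0.806, 7.28 and 9.55 CPM in FGF19WT and 0.865, 0.643 and 0.934 CPM in FGF19ΔKLB, against 1.24, 0.381 and 0.627 CPM in vehicle. In both genes FGF19WT 2 and 3 were far above the other 7 libraries, and FGF19WT 1 was within the range of the vehicle libraries.

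For FGF19WT against vehicle the log2 fold change was 2.58 (SE 0.81, edgeR adjusted p = 0.158) for Col12a1 and 2.97 (SE 0.82, edgeR adjusted p = 0.136) for Col23a1. DESeq2 gave adjusted p-values of 0.0135 and 0.00397. Without FGF19WT 2 and 3 the log2 fold changes were -0.56 and 0.11, again with 1 FGF19WT library assumed to vary like the other groups (edgeR adjusted p = 0.919 and 0.99). FGF19ΔKLB was lower than FGF19WT by 7.15-fold for Col12a1 and 7.21-fold for Col23a1, each with an edgeR adjusted p of 0.252. Col12a1 lies at chr9:79598991-79718720 (minus strand) and overlaps 4930562D21Rik on the other strand, and Col23a1 lies at chr11:51289920-51583918 (plus strand).

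Col20a1, a collagen of the fibril-associated class, was higher on average in both FGF19 groups. It had 2.21, 8.09 and 9.53 CPM in FGF19WT and 8.05, 4.71 and 2.01 CPM in FGF19ΔKLB, against 1.09, 2.09 and 1.38 CPM in vehicle. FGF19WT did not overlap vehicle, though FGF19WT 1 cleared it narrowly, and FGF19ΔKLB 3 lay inside the vehicle range. The log2 fold change against vehicle was 2.12 (SE 0.64, edgeR adjusted p = 0.152, DESeq2 adjusted p = 0.0159) for FGF19WT and 1.69 (SE 0.64, edgeR adjusted p = 0.536) for FGF19ΔKLB. The gene (chr2:180986535-181017714, plus strand) overlaps BX649560.1 on the same strand, so its counts are uncertain.

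Col14a1, a fibril-associated chain, was lower in both FGF19 groups. It had 29.2, 5.17 and 0.508 CPM in FGF19WT and 19.9, 38.3 and 15.3 CPM in FGF19ΔKLB, against 47.8, 51.1 and 51.6 CPM in vehicle. No FGF19 library overlapped vehicle, but the spread among the FGF19WT libraries was so wide that the log2 fold change of -2.11 had an SE of 1.05 (edgeR adjusted p = 0.315). For FGF19ΔKLB it was -1.03 (SE 1.02, edgeR adjusted p = 0.865 over 9 libraries), and over the 6 libraries -1.04 (SE 0.33, edgeR adjusted p = 0.184).

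The beaded filament chains Col6a1, Col6a2 and Col6a3, which assemble together in type VI collagen around cells, followed a like order of libraries. Col6a1 had 8.63, 4.57 and 0.116 CPM in FGF19WT and 4.58, 10.6 and 4.9 CPM in FGF19ΔKLB, against 14.2, 8.62 and 15.7 CPM in vehicle. Col6a2 had 2.87, 3.02 and 0 CPM in FGF19WT and 2.92, 5.14 and 2.57 CPM in FGF19ΔKLB, against 6.09, 4.03 and 9.3 CPM in vehicle. Col6a3 had 3.94, 3.02 and 0.203 CPM in FGF19WT and 3.08, 7.6 and 3.52 CPM in FGF19ΔKLB, against 7.3, 5.07 and 9.02 CPM in vehicle. FGF19WT 3 was at or near the floor for all 3 genes, where 12 counts (3 read pairs) correspond to 0.174 CPM. The log2 fold changes of FGF19WT against vehicle were -1.53 (SE 1.02), -1.72 (SE 1.19) and -1.58 (SE 0.83) in that order, with edgeR adjusted p-values of 0.428, 0.447 and 0.339.

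Col18a1 and Col15a1, collagens with sugar chains at basement membranes, were not called by any fit. Col18a1 (chr10:77052178-77166548, minus strand, overlapping Slc19a1 on the other strand) had 812, 496 and 475 CPM in FGF19WT and 783, 561 and 684 CPM in FGF19ΔKLB, against 613, 744 and 644 CPM in vehicle. Its log2 fold change was -0.17 (95% interval -0.75 to 0.42) for FGF19WT against vehicle and 0.02 (-0.57 to 0.60) for FGF19ΔKLB against vehicle, the narrowest intervals among chains outside type IV. Col15a1 had 8.64, 3.21 and 0.914 CPM in FGF19WT and 7.14, 7.76 and 7.24 CPM in FGF19ΔKLB, against 2.55, 6.35 and 6.52 CPM in vehicle. FGF19ΔKLB was narrowly above vehicle for Col15a1 (log2 0.52, SE 0.68, edgeR adjusted p = 0.910). Col16a1, a fibril-associated chain, had 2.02, 0.42 and 0 CPM in FGF19WT and 0.983, 2.11 and 1.95 CPM in FGF19ΔKLB, against 3.23, 2.17 and 3.17 CPM in vehicle.

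Among the remaining chains below a mean of 1 CPM, Col13a1, a transmembrane collagen, reached 2.06 CPM and Col25a1, another of that class, 0.254 CPM. Col25a1 had at most 19 counts in a library and 0 in FGF19WT 2 and 3, so its values lie near the floor. The others of these classes that passed, Col6a5, Col6a6, Col7a1, Col8a1 and Col9a3, stayed between 0 and 0.837 CPM. The 5 chains of these classes that did not pass the filter were Col8a2, Col9a2, Col10a1, Col17a1 and Col28a1. Of the 7 chains that did not pass, 6 had fewer than 12 counts in every library, so at this depth no difference could be seen in them. Col24a1 had 0 counts in every FGF19WT library, 7, 17 and 4 in FGF19ΔKLB, and 17, 8 and 6 in vehicle. These values of Col24a1 lie near the floor and were not tested. Over the 17 tested chains of other classes the median log2 fold change was -1.35 in FGF19WT against vehicle, -0.33 in FGF19ΔKLB against vehicle and 0.59 for FGF19ΔKLB against FGF19WT. The first was -2.09 without FGF19WT 1, -0.94 over the 6 libraries and -0.5 without FGF19WT 2 and 3, and limma on log2(FPKM + 1), a scale that understates changes of low genes, gave -0.03. The second was -0.1 without FGF19ΔKLB 1 and -0.96 without FGF19ΔKLB 2, and the third was 1.51 without FGF19WT 1 and 0.05 without FGF19WT 3.

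**Figure D5:**
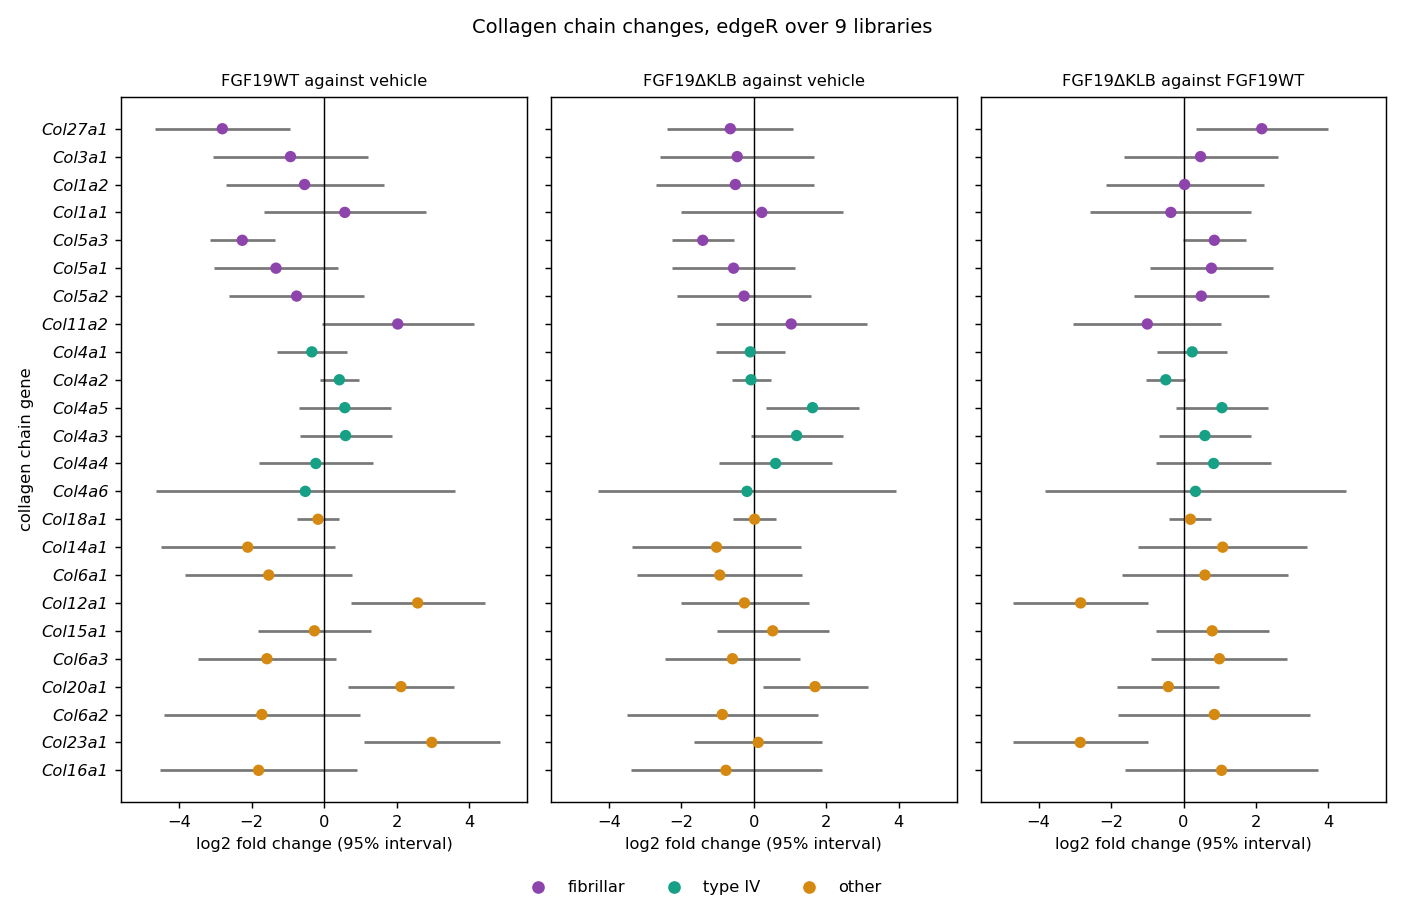
Log2 fold change (points) with 95% interval (bars) from edgeR over 9 libraries for the 24 chains named by rule, coloured by class, in the 3 comparisons. Intervals of Col5a3 lie below 0 in both comparisons with vehicle, and those of Col12a1 and Col23a1 exclude 0 only where FGF19WT is compared.

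Counting chains whose groups did not overlap gives a further description. In FGF19WT against vehicle 2 of 31 chains were higher in every FGF19WT library (Col4a2 and Col20a1), where 11.0% of all genes were, and 10 were lower, where 11.6% of all genes were. The 10 were Col3a1, Col5a1, Col5a3, Col27a1, Col6a2, Col6a3, Col6a5, Col14a1, Col16a1 and Col25a1. In FGF19ΔKLB against vehicle 3 were higher (Col4a3, Col4a5 and Col15a1; 12.4% of all genes) and 3 were lower (Col5a3, Col14a1 and Col16a1; 12.2%). In FGF19ΔKLB against FGF19WT 3 were higher (Col27a1, Col4a5 and Col25a1; 7.15%) and 0 were lower (6.39%).

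Much of this lay in single libraries. FGF19WT 3 was the lowest of the 9 libraries for 16 of 31 chains, where it was the lowest for 22.8% of all genes. FGF19WT 2 and 3 were both above the other 7 libraries for 4 chains (Col4a2, Col12a1, Col20a1 and Col23a1) and both below them for 10. They stood in one or the other of these positions for 37.4% of all genes. Without FGF19WT 1, edgeR called 10 chains in FGF19WT against vehicle, where it called 28.1% of all genes. Those 10 were Col5a3, Col27a1, Col14a1, Col13a1, Col16a1 and Col25a1, lower in FGF19WT, and Col11a2, Col12a1, Col20a1 and Col23a1, higher. In FGF19ΔKLB against FGF19WT it then called 7, where it called 20.4% of all genes. Of these, Col5a3, Col13a1, Col14a1, Col25a1 and Col27a1 were higher in FGF19ΔKLB, and Col12a1 and Col23a1 were lower.

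Marker sums of the cells that make collagen are given beside these values. The summed level of 12 stellate cell markers was 315, 218 and 231 CPM in FGF19WT and 167, 276 and 140 CPM in FGF19ΔKLB, against 465, 401 and 402 CPM in vehicle. Of these 12 markers, 10 were lower in FGF19WT than in vehicle by fold change and 12 of 12 were lower in FGF19ΔKLB, with medians of -1.75 and -0.92 on the log2 scale. edgeR over 9 libraries called 0 in either comparison, and DESeq2 called Reln, higher in FGF19WT (adjusted p = 0.00496), where it called 9.61% of all genes. Over the 6 libraries of FGF19ΔKLB and vehicle, edgeR called 1, the nerve growth factor receptor Ngfr, lower (adjusted p = 0.0187), where it called 1.68% of all genes. Reln, one of the 12, went the other way in FGF19WT, at 47.9, 175 and 212 CPM in FGF19WT and 31.3, 46.1 and 32.4 CPM in FGF19ΔKLB, against 44.6, 43 and 36.2 CPM in vehicle.

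Without Reln the stellate sum was 267, 43.2 and 19.1 CPM in FGF19WT and 136, 230 and 107 CPM in FGF19ΔKLB, against 359 to 420 CPM in vehicle. Reln was left out in view of its values, so this reduced sum is descriptive only. Nes, the other marker higher in FGF19WT than in vehicle (log2 0.24, SE 0.55), was kept. FGF19WT 3 had 2 of the 12 markers at 0. Sums of 10 portal fibroblast and myofibroblast markers were 51.4 to 75.9 CPM in FGF19WT and 14 to 48.7 CPM in FGF19ΔKLB, against 35.4 to 44 CPM in vehicle. The sum was thus above vehicle in every FGF19WT library, but most members did not follow it. By fold change 6 of the 10 markers were lower in FGF19WT than in vehicle and 4 higher (median log2 -0.84). In FGF19WT 3, 3 of the 10 were at 0. Sums of 10 sinusoidal endothelial markers, cells that also make type IV chains, were 65.1 to 230 CPM in FGF19WT and 101 to 162 CPM in FGF19ΔKLB, against 179 to 207 CPM in vehicle. Bile duct markers, 7 in all, summed to 40.6 to 55.2 CPM in FGF19WT and 44 to 71.6 CPM in FGF19ΔKLB, against 63.6 to 81.6 CPM in vehicle. By fold change 4 of the 6 tested bile duct markers were lower in FGF19WT than in vehicle and 2 higher (median log2 -0.97). In FGF19ΔKLB 5 of the 6 were higher than in vehicle and 1 lower (median log2 0.3), so most members did not follow the sum there. In whole liver RNA, fewer cells of a type and less RNA per cell cannot be told apart, and the part of these cells in the collagen values was not tested.

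Of 18 tested genes for hydroxylation, folding and glycosylation of the chains, edgeR called 0 in any comparison over 9 libraries. DESeq2 over 9 libraries called Ppib, higher in FGF19WT than in vehicle (adjusted p = 0.00324), and Plod1, lower in FGF19ΔKLB than in vehicle (adjusted p = 0.0041) and than in FGF19WT (adjusted p = 0.0403). In these comparisons it called 9.61%, 2.04% and 4.60% of all genes, in that order. Over the 6 libraries of FGF19ΔKLB and vehicle edgeR called Plod1, a lysyl hydroxylase, where it called 1.68% of all genes. Plod1 fell to 33.5, 35.7 and 30 CPM in FGF19ΔKLB, against 50.2, 51.8 and 51.4 CPM in vehicle (log2 -0.63, edgeR adjusted p = 0.0418 over 6 libraries and 0.256 over 9). FGF19WT had 39.7, 53.3 and 44.9 CPM, so it overlapped vehicle. Ppib, a prolyl isomerase of the collagen folding complex, had 229, 272 and 370 CPM in FGF19WT and 206, 266 and 282 CPM in FGF19ΔKLB, against 150, 166 and 143 CPM in vehicle (FGF19WT against vehicle, log2 0.92, SE 0.22, edgeR adjusted p = 0.125). Fkbp14, another isomerase, had 7.34, 3.17 and 3.41 CPM in FGF19WT and 9.03, 8.36 and 7.63 CPM in FGF19ΔKLB, against 9.19, 7.79 and 7.39 CPM in vehicle.

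Of 10 tested genes for propeptide removal and cross-linking, edgeR called 0 over 9 or 6 libraries. DESeq2 over 9 libraries called Adamts14, higher in FGF19WT than in vehicle and lower in FGF19ΔKLB than in FGF19WT (adjusted p = 0.00259 in each), and Bmp1, higher in FGF19ΔKLB than in FGF19WT (adjusted p = 0.0322). It called 9.61% of all genes in FGF19WT against vehicle and 4.60% in FGF19ΔKLB against FGF19WT. Adamts14, which trims the amino end of fibrillar procollagens, had 1.77, 30 and 30.2 CPM in FGF19WT and 1.8, 2.15 and 2.82 CPM in FGF19ΔKLB, against 2.64, 3 and 1.79 CPM in vehicle, with a log2 fold change of 3.06 for FGF19WT against vehicle (SE 0.84, edgeR adjusted p = 0.135). Its high values stood in FGF19WT 2 and 3, the same libraries as for Col12a1 and Col23a1. Bmp1, which trims the carboxyl end, had 87.8, 66.7 and 65.4 CPM in FGF19WT and 120, 94.8 and 136 CPM in FGF19ΔKLB, against 103, 108 and 115 CPM in vehicle (FGF19WT against vehicle, log2 -0.57, SE 0.19, edgeR adjusted p = 0.168). The lysyl oxidase relatives Loxl4 and Loxl2 had the smallest p in FGF19ΔKLB against vehicle, with log2 fold changes of 0.79 (SE 0.77) and -0.70 (SE 0.71).

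Of 14 tested genes for breakdown and its inhibitors, edgeR called 0 in any comparison over 9 or 6 libraries, and DESeq2 over 9 libraries called 0. For FGF19WT against vehicle the membrane-bound metalloproteinases Mmp14 and Mmp15 had the smallest p, with log2 fold changes of 0.50 (SE 0.16, edgeR adjusted p = 0.166) and 0.90 (SE 0.32, edgeR adjusted p = 0.186). Mmp12, the macrophage elastase, had 1.44, 3.18 and 1.9 CPM in FGF19ΔKLB and 3.59, 13.4 and 2.09 CPM in FGF19WT, against 6.13, 8.16 and 5.04 CPM in vehicle (FGF19ΔKLB against vehicle, log2 -1.57, SE 0.65, edgeR adjusted p = 0.582 over 9 and 0.0718 over 6 libraries). Ctsk, a collagen-cleaving cathepsin, was next, at -1.22 (SE 0.68) in FGF19ΔKLB against vehicle.

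Of 8 tested collagen receptors edgeR over 9 libraries called 0. DESeq2 over 9 libraries called Itga2, lower in FGF19WT than in vehicle (adjusted p = 0.0299), where it called 9.61% of all genes. Itga2 had 0.308, 0.494 and 0.232 CPM in FGF19WT and 0.748, 0.703 and 0.868 CPM in FGF19ΔKLB, against 0.841, 0.556 and 3.08 CPM in vehicle. Vehicle 3 was thus far above every other library, and FGF19ΔKLB overlapped vehicle. The integrin chain Itga2 was at -2.11 (SE 0.67, edgeR adjusted p = 0.161) and the collagen-binding kinase Ddr2 at -1.55 (SE 0.83, edgeR adjusted p = 0.343) on the log2 scale in FGF19WT against vehicle. Against vehicle, FGF19ΔKLB was at -0.95 (SE 0.64) for Itga2 and 1.3 (SE 1.06) for the platelet receptor Gp6. Gp6 lay near the floor, at 0.235, 0.239 and 0.197 CPM in FGF19ΔKLB and 0.107, 0.0586 and 0.102 CPM in vehicle, where 12 counts correspond to 0.148 to 0.196 CPM. Against FGF19WT, FGF19ΔKLB was at 1.16 (SE 0.66) for Itga2 and -0.83 (SE 0.61) for the integrin chain Itga10.

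The TGF-beta list, which holds the growth factor that drives collagen transcription in stellate cells, its receptors and Smads, and platelet-derived growth factors, had 0 of 13 members called by edgeR over 9 libraries. In FGF19WT against vehicle DESeq2 called Smad3 (adjusted p = 0.0169) and Pdgfc (adjusted p = 0.013), higher, and Tgfb3 (adjusted p = 0.0384), lower, where it called 9.61% of all genes. It also called Pdgfc in FGF19ΔKLB against FGF19WT, lower (adjusted p = 0.0037), where it called 4.60% of all genes. Smad3, a transcription factor of the pathway, had 17.3, 21.6 and 27.3 CPM in FGF19WT and 14.3, 13.9 and 19.6 CPM in FGF19ΔKLB, against 13.1, 12.9 and 12.3 CPM in vehicle (FGF19WT against vehicle, log2 0.79, SE 0.20, edgeR adjusted p = 0.128). Pdgfc, a growth factor of stellate cells, had 2.53, 20.9 and 13 CPM in FGF19WT and 1.83, 2.21 and 2.54 CPM in FGF19ΔKLB, against 2.9, 2.4 and 3.25 CPM in vehicle (log2 2.09 for FGF19WT against vehicle, SE 0.62, edgeR adjusted p = 0.144). As for Col12a1, its high values stood in FGF19WT 2 and 3. Tgfb3, a ligand, was at -0.68 (SE 0.39) in FGF19ΔKLB against vehicle, and the receptor Tgfbr1 at 0.79 (SE 0.32, edgeR adjusted p = 0.371) in FGF19ΔKLB against FGF19WT.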

How the data were processed

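Per the labels' protocols, total liver RNA was extracted with TRIzol and sequenced on Illumina libraries. Per the submitters' processing notes, Bowtie 0.12.2, HISAT2 2.0 and StringTie 1.3.0 were used, and mm8 is named as the genome build. The deposited positions do not follow that build: all 38 collagen starts and 33 of their ends match GENCODE M21 on GRCm38, so coordinates are given on GRCm38. For each gene the authors deposited expected counts and, beside them, FPKM values for all 9 libraries. How genes were chosen for the table, and whether counting used strand, are not given in the sources used here. Of the chains, 13 overlap another gene on the same strand and 16 on the other strand.

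Expected counts, which are whole numbers as deposited, entered a quasi-likelihood model over all 9 libraries in edgeR 4.0.16 (R 4.3.3) (TMM, edgeR's filter on low counts, robust, group as the only term, 6 residual degrees of freedom), with 18142 genes tested and Benjamini-Hochberg adjusted p-values over all of them, a call being under 0.05. Alternatives were DESeq2 1.42.0, limma 3.58.1 on log2(FPKM + 1) and log2(FPKM + 0.1), the 6 libraries of the groups compared, other filters and scalings, counts divided by 4, a replicate block and leaving libraries out. The procedure was tested on simulated data. Counting floors (12 counts, or 3 read pairs at the inferred 4 counts per read pair) cover counting error only.

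The chains and gene lists were chosen with earlier results of these data known. Named by rule were fibrillar and type IV chains past the filter, other chains with a mean of at least 1 CPM, any called chain and, of each list, up to 4 called members per comparison or else the 2 with the smallest p. Chains named beyond that spell out a count or an alternative's calls and were chosen after their values were seen. A listed symbol, Ctgf, was matched as Ccn2 through RefSeq synonyms. Intervals are 95% intervals, and they and the SEs were derived from the edgeR fits.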

Additional observations from a re-analysis of the deposited data

How the results depend on the processing

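The count of called chains was 0 in each comparison with no filter on low counts, a minimum of 1 CPM in 3 or more libraries, scaling by DESeq2 size factors, counts divided by 4 and the 6-library edgeR fits. For FGF19WT against vehicle it was 5 with DESeq2 over 9 libraries (9.61% of all genes called) and 5 with DESeq2 over 6 (6.32%). It was 1 with limma on log2(FPKM + 1) (0.595%) as on log2(FPKM + 0.1) (0.474%). Leaving out each library in turn gave 0 to 10, the 10 without FGF19WT 1, where 28.1% of all genes were called. For FGF19ΔKLB against vehicle it was 1 with DESeq2 over 9 libraries (2.04% of all genes) and 5 over 6 (7.95%), and 0 whichever library was left out. For FGF19ΔKLB against FGF19WT it was 2 with DESeq2 over 9 libraries (4.60% of all genes) and 2 over 6 (3.11%). In that comparison leaving out each library gave 0 to 7, the 7 without FGF19WT 1, where 20.4% of all genes were called. The cause of these differences was not tested. Leaving out FGF19WT 2 and 3 also gave 0, but with FGF19WT as 1 library assumed to vary like the others. Among chains that a fit called in the same comparison, it turned the sign of the log2 fold change for Col12a1 (-0.56) and Col11a2 (-0.34) in FGF19WT against vehicle. In FGF19ΔKLB against FGF19WT, on the same terms, it did so for Col12a1 (0.3), Col13a1 (-0.7), Col14a1 (-0.26) and Col23a1 (0.01).

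Deviations of same-numbered libraries from their group means had correlations of -0.05 to 0.15. These values give no sign that the numbers pair the libraries, but with 3 libraries per group they cannot exclude it. With the replicate block the count of called chains was 0 in each comparison. DESeq2 over 6 libraries was added after the data were seen. The 6 chains under 12 counts in every library cannot show a difference at this depth.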
